A study of Sus scrofa with 15 samples.

Results

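Natural killer (NK) cells with the surface phenotype CD3-CD172a-CD8α-high were compared between the liver and the blood of the same animals. The comparison rests on 10 of the 15 RNA libraries of the series, namely 5 of conventional liver NK cells and 5 of blood NK cells (cNK cells), chosen by the population that the labels name and paired by the donor number. The donors were 5 pigs of 6 months, without any treatment, and each pig gave 1 library of each population. Blood was drawn from the living animal, whereas the liver cells came from the last ice-cold flush of the portal vein after euthanasia. By the paper's methods both then went through 1 protocol, with density centrifugation, lysis of red cells, depletion of CD3+ and CD172a+ cells with magnetic beads and sorting by flow cytometry, so that the protocol was shared but tissue of origin and way of collection cannot be told apart in these libraries. The other 5 libraries held CD8α-dim liver-resident NK (lrNK) cells of the same 5 pigs. They entered the statistical fit and are used below to tell on which side of the blood and CD8α-dim levels the liver CD8α-high level lay.

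NK cells are innate lymphocytes that kill infected or transformed cells and release cytokines. In the liver, NK cells of circulating type pass through the sinusoids next to a resident population. Several gene families described below respond within minutes to hours to a change in a cell's surroundings. The NR4A and EGR transcription factors are immediate early genes that are switched on by signalling from surface receptors, heat shock proteins fold other proteins and are induced by many kinds of stress, and the cold-inducible RNA-binding proteins follow temperature.

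Library preparation with a 3′ kit captured the ends of transcripts, and the deposited values are whole-number counts of reads per gene of the assembly Sscrofa11.1. A level is given as CPM, a count scaled to the size of its library with edgeR's TMM factors, and is not divided by gene length because reads come from the 3′ end. Totals were 2874092 to 3823973 counts in blood and 2886686 to 5680221 in the liver CD8α-high libraries. The sort gene *CD8A* had 229, 634, 457, 532 and 476 CPM in the blood of pigs 1 to 5 and 276, 596, 426, 585 and 568 CPM in their liver CD8α-high cells, against 29.5 to 57.0 CPM in CD8α-dim cells. The summed level of 10 NK markers was 3246 to 5003 CPM in blood and 3697 to 4463 CPM in liver, and 0 of them rose and 0 fell in the main test (edgeR, adjusted p under 0.05), with 0 at an unadjusted p under 0.05 and 0 called in DESeq2. The T cell gene *CD3E* was at 0 to 25.1 CPM in liver, and 10 T cell markers, which include genes that NK cells also express, summed to 855 to 1483 CPM in blood and 910.0 to 1277 CPM in liver. Markers of hepatocytes (including *ALB*) summed to at most 4.83 CPM and those of monocytes and macrophages to at most 5.02 CPM in liver, with 8 of 12 and 8 of 13 genes at 0 counts in all 10 libraries. Marker sums of stellate and biliary cells reached 1.04 CPM, of liver endothelium 8.98 CPM and of neutrophils 0 CPM in liver. Dendritic cell markers summed to 38.4 to 101 CPM in blood and 47.1 to 129 CPM in liver. Platelet markers summed to 73.4 to 112 CPM in blood and 88.1 to 118 CPM in liver. Among the CD8α-dim libraries, that of pig 3 stood apart, with 86.2 CPM of *CXCR6* and 193 CPM of *KLRB1* where the other 4 had at least 607 and 1089 CPM. The counts and differences from CD8α-dim cells that the called genes rest on are also given without it.

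The liver and blood CD8α-high cells differed in few genes. In the fit of all 15 libraries with the pig as a block, 8 of 10939 genes passed the quasi-likelihood test of edgeR (0.0731%, Benjamini-Hochberg adjusted p under 0.05). The 5 genes that rose in liver (0.0457%) were *NR4A2*, *EGR3*, *HSPA8*, *CKS2* and *CLK1*, and the 3 that fell (0.0274%) were *CIRBP*, *LOC106510428* and the mitochondrial *CYTB*. Each of the 8 moved in the same direction in all 5 pigs, whereas 5.37% of all genes were higher and 6.09% lower in liver in all 5, and for each the 5 liver levels lay wholly above or wholly below the 5 blood levels. The 8 were called on these same libraries, so that a shared direction and a lack of overlap largely follow from the call. Over all genes tested, the 5 liver levels lay above the 5 blood levels in 121 (1.11%) and below them in 99 (0.905%). At an unadjusted p under 0.05 the fit called 646 genes (5.91%), of which 365 were higher (3.34%) and 281 lower (2.57%) in liver, and the median log2 fold change of all genes, liver minus blood, was -0.02. These shares, with the 47.8% of all genes above 0, are the background for the counts of list members below.

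The number of calls depended on the fit. When the CD8α-dim libraries were left out and only the 10 libraries of both CD8α-high populations were fitted with the pig as a block, 85 of 10296 genes were called (0.826%), 48 higher (0.466%) and 37 lower (0.359%) in liver. This fit had 4 residual degrees of freedom against 8 in the 15-library fit. The prior degrees of freedom, which edgeR adds from the spread of all genes, were 17.6 against 9.63. All 8 genes of the 15-library fit were among them, and 84 of the 85 had the same direction in every pig, which the call itself favours. DESeq2 with pig and population called 47 of 10939 genes (0.43%), 23 higher (0.21%) and 24 lower (0.219%) in liver, of which 37 were also called in the 10-library fit. The 15-library fit shares 1 estimate of spread with the CD8α-dim libraries. Without the CD8α-dim library of pig 3, the 15-library fit called 19 genes, 18 of them among the 85, and without pig 2 it called 2, *NR4A2* and *EGR3*. With each pig left out in turn, the largest adjusted p (edgeR) was 0.0217 for *NR4A2*, 0.0963 for *EGR3*, 0.126 for *HSPA8*, 0.197 for *CKS2*, 0.626 for *CLK1*, 0.401 for *CIRBP*, 0.197 for *LOC106510428* and 0.654 for *CYTB*. The 10-library fit called 17 genes without pig 2 and 46 to 63 without each other pig. In the following, a gene rose or fell where the 15-library fit called it. The other genes of the 85 are named as calls of the 10-library fit, and were named after their values were seen.

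**Figure D1:**
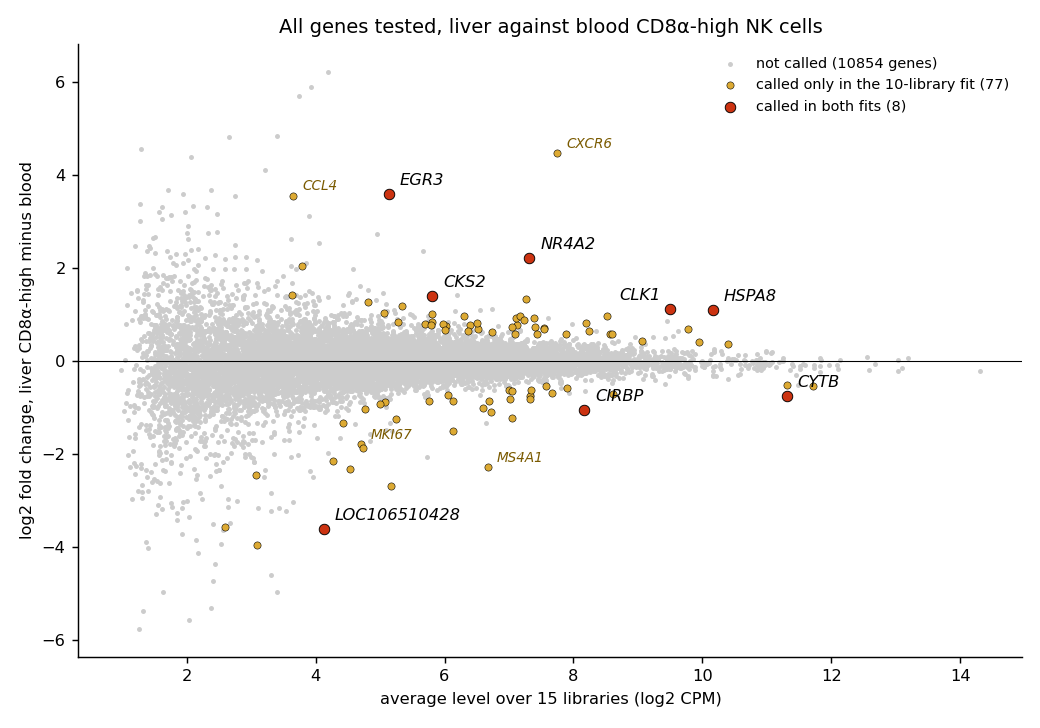
Average level over the 15 libraries (x axis, log2 CPM) against the fitted log2 fold change, liver CD8α-high minus blood (y axis), for each of the 10939 genes tested. The 8 genes called in both fits are red and labelled, the 77 called only in the 10-library fit are yellow, and most other genes lie near 0, with a wider spread at low levels.

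Among immediate early factors, *NR4A2* and *EGR3* rose. *NR4A2* (chr15:63487051-63506249), an orphan nuclear receptor, had 48.5, 47.7, 33.9, 104 and 22.2 CPM in the blood cells of pigs 1 to 5 and 259, 169, 201, 293 and 201 CPM in their liver CD8α-high cells. Every liver library was above every blood library, and the means were 51.3 ± 31.6 and 224 ± 50.2 CPM (SD, n = 5). The log2 fold change was 2.22 (SE 0.26, adjusted p = 0.00156, edgeR), the smallest p of all genes. *EGR3* (chr14:6943184-6948507), a zinc finger factor induced by antigen receptor signalling in lymphocytes, had 1.63, 0, 2.17, 4.34 and 8.19 CPM in blood and 62.2, 23.5, 13.7, 48.1 and 37.3 CPM in liver. The highest blood level, in pig 5, was below the lowest liver level, in pig 3, and the log2 fold change was 3.60 (SE 0.52, adjusted p = 0.00671, edgeR). The blood libraries held 0 to 24 *EGR3* reads, so that its fold change rests on few reads. CD8α-dim cells of the same pigs had 297, 118, 105, 243 and 240.0 CPM of *NR4A2* and 73.1, 65.8, 39.5, 36.2 and 104 CPM of *EGR3*, and liver CD8α-high minus CD8α-dim was 0.21 (adjusted p = 0.669, edgeR) and -0.86 (adjusted p = 0.223, edgeR).

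The other NR4A and EGR genes did not pass the test. *NR4A3*, the close relative of *NR4A2*, was already high in blood, with 87.5 to 219.7 CPM and 114 to 275 CPM in liver, and its log2 fold change was 0.62 (SE 0.33, adjusted p = 0.884, edgeR). It was nearly silent in CD8α-dim cells at 0 to 9.55 CPM. The pair of NR4A genes thus differed in their levels over the populations, and *NR4A1* had 0 counts in all 10 libraries. *EGR1* had 2.05 (SE 0.84) on the log2 scale at 0 to 5.78 CPM in blood and 0.478 to 16.9 CPM in liver, and *EGR2* one of 0.61 (SE 0.29). *IER2*, an immediate early gene of unrelated sequence, had 89.2, 56.5, 136, 90.3 and 144 CPM in blood and 165, 206, 187, 230.1 and 176 CPM in liver without overlap, and was called in the 10-library fit with 0.97 (SE 0.18, adjusted p = 0.00699 with 10 libraries and 0.256 with 15, edgeR). Of the list of NR4A, EGR and IER genes with their coregulators, 11 of 13 were tested, 2 rose and 0 fell, 9 had a positive log2 fold change and the median was 0.62. Of 12 tested AP-1 factors and dual-specificity phosphatases, 0 were called in the 15-library fit or in DESeq2 and 2 were higher at an unadjusted p under 0.05, and *DUSP2*, a phosphatase of activated lymphocytes, was called in the 10-library fit with 0.60 (SE 0.14, adjusted p = 0.0347 with 10 libraries and 0.47 with 15, edgeR). *FOS* was not tested, with 0 to 4 counts per library. The 14 NF-κB genes and the 13 calcium and NFAT response genes tested had 0 calls in either edgeR fit and in DESeq2, with 1 and 2 genes at an unadjusted p under 0.05.

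**Figure D2:**
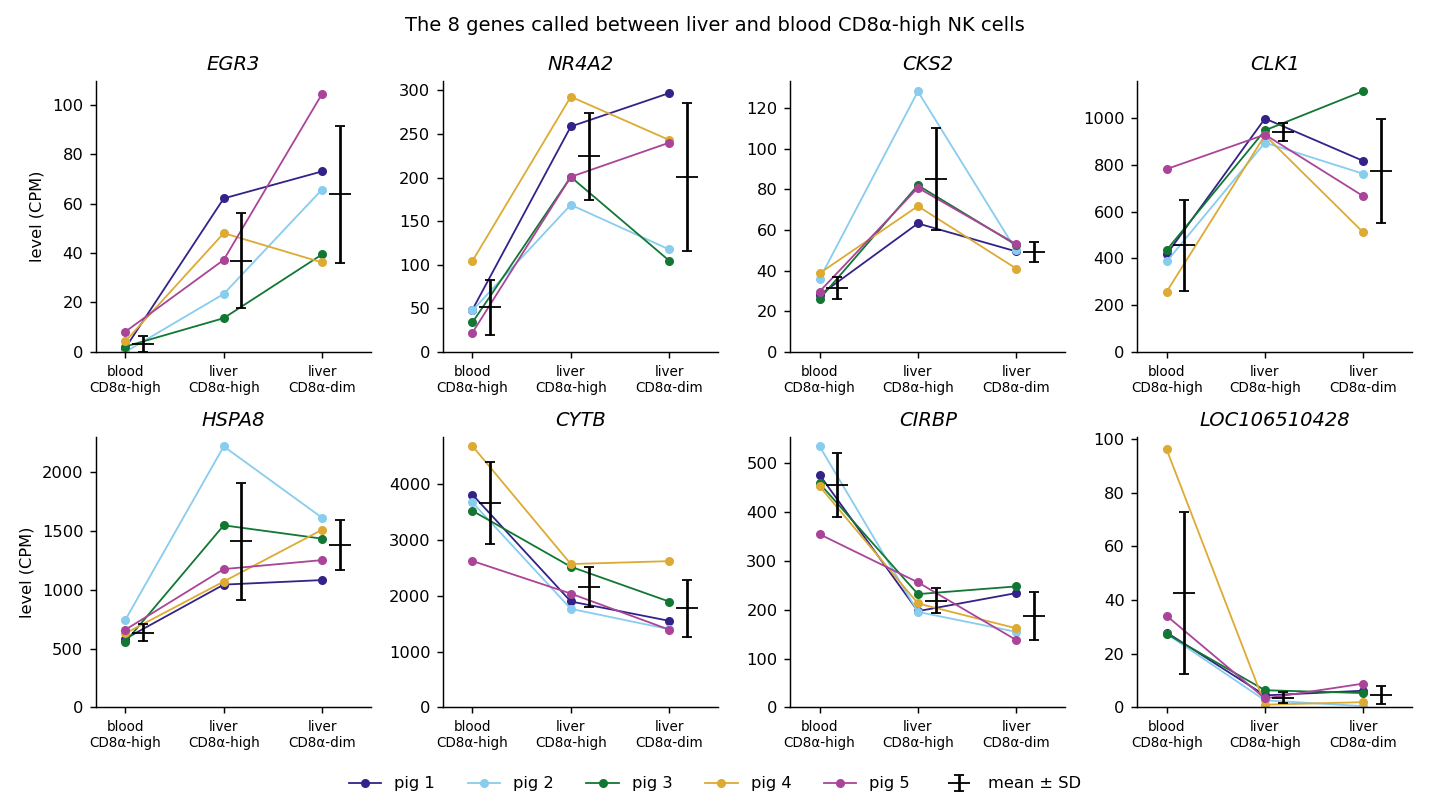
Levels (y axes, CPM, starting at 0) of the 8 genes called, in NK cells of blood, liver CD8α-high and CD8α-dim type (x axes). Each coloured line is 1 of the 5 pigs and black bars give mean ± SD. For each gene the liver CD8α-high points lie apart from the blood points, and *CKS2* is the only one of the 5 rising genes with a higher level in liver CD8α-high than in CD8α-dim cells in each pig.

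*HSPA8* was the only heat shock chaperone of the list that rose in the 15-library fit, and 0 fell. This gene (chr9:49982278-49986760) encodes the constitutive HSC70 chaperone and had 585, 746, 558, 631 and 662 CPM in blood and 1045, 2222, 1549.9, 1072 and 1178 CPM in liver. The populations did not overlap, the log2 fold change was 1.10 (SE 0.15, adjusted p = 0.00584, edgeR), and the largest rise was that of pig 2. CD8α-dim cells had 1084 to 1615 CPM, and liver CD8α-high minus CD8α-dim was -0.004 (adjusted p = 0.991, edgeR). *HSPA8* is a member of a multigene family, and the treatment of reads with several alignments is not stated.

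Of 38 chaperones and cochaperones listed, 33 were tested, and 1 rose and 0 fell. The HSP70 genes *HSPA1A* and *HSPA1B* had no entry under these names in the counts and could not be read. The median log2 fold change of the list was 0.38, 28 of 33 were above 0, and 12 were higher and 0 lower at an unadjusted p under 0.05, where 3.34% of all genes were higher. The level was higher in liver in all 5 pigs for 10 of the 33, against 5.37% of all genes tested. Besides *HSPA8*, 4 members were called in the 10-library fit. *DNAJA1*, a J-domain partner of HSP70 proteins, had 132, 234, 161, 176 and 228 CPM in blood and 228, 508, 359.9, 291 and 277 CPM in liver. Liver was higher in each pig although the ranges overlapped slightly, with 0.83 (SE 0.17, adjusted p = 0.0932, edgeR) in the 15-library fit and 0.83 (SE 0.13, adjusted p = 0.00169, edgeR, 10 libraries). *HSPH1*, a nucleotide exchange factor of HSP70, had 84.8, 113, 39.9, 48.1 and 116 CPM in blood and 104, 487, 232, 157 and 135 CPM in liver. Pig 2 was far above the others in liver while pigs 1 and 5 differed least from their blood, and the 10-library value was 1.39 (SE 0.25, adjusted p = 0.00656 with 10 libraries and 0.263 with 15, edgeR). *HSP90AA1*, the inducible cytosolic HSP90, had 622, 724, 614, 584 and 699 CPM in blood and 781, 1798, 1110.5, 914 and 828 CPM in liver. All its liver levels were above all its blood levels, with 0.69 (SE 0.12, adjusted p = 0.00656 with 10 libraries and 0.312 with 15, edgeR). The mitochondrial chaperonin *HSPD1* had 35.8 to 55.6 CPM in blood and 61.5 to 87.8 CPM in liver, without overlap, with 0.79 (SE 0.17, adjusted p = 0.0243 with 10 libraries and 0.47 with 15, edgeR).

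Other stress-inducible chaperones had positive values that neither the 15-library nor the 10-library fit called. *DNAJB1* had 5.96, 20.01, 11.13, 11.2 and 7.85 CPM in blood and 6.91, 62.8, 25.9, 20.2 and 29.1 CPM in liver, a log2 fold change of 1.21 (SE 0.36, adjusted p = 0.47, edgeR). The cochaperone *STIP1* had 0.96 (SE 0.32), *CACYBP* 0.65 (SE 0.25), *CHORDC1* 0.72 (SE 0.32) and *HSPA4* 0.47 (SE 0.15). The constitutive *HSP90AB1* had 0.27 (SE 0.15), and the heat shock factor genes *HSF1* and *HSF2* had -0.41 (SE 0.24) and -0.22 (SE 0.29). Among liver CD8α-high libraries, that of pig 2 had the highest level for 21 of the 33 chaperones, and that of pig 1 the lowest for 15. The 14 subunits of the chaperonin TRiC and of prefoldin had a median of 0.29 with 12 above 0 and 0 calls in either edgeR fit and in DESeq2 (2 were higher at an unadjusted p under 0.05). The 22 genes of the endoplasmic reticulum chaperone list had a median of 0.14 and also 0 calls in all 3 (1 at an unadjusted p under 0.05), with *HSPA5* at 420.3 to 535 CPM in blood and 492 to 576 CPM in liver.

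**Figure D3:**
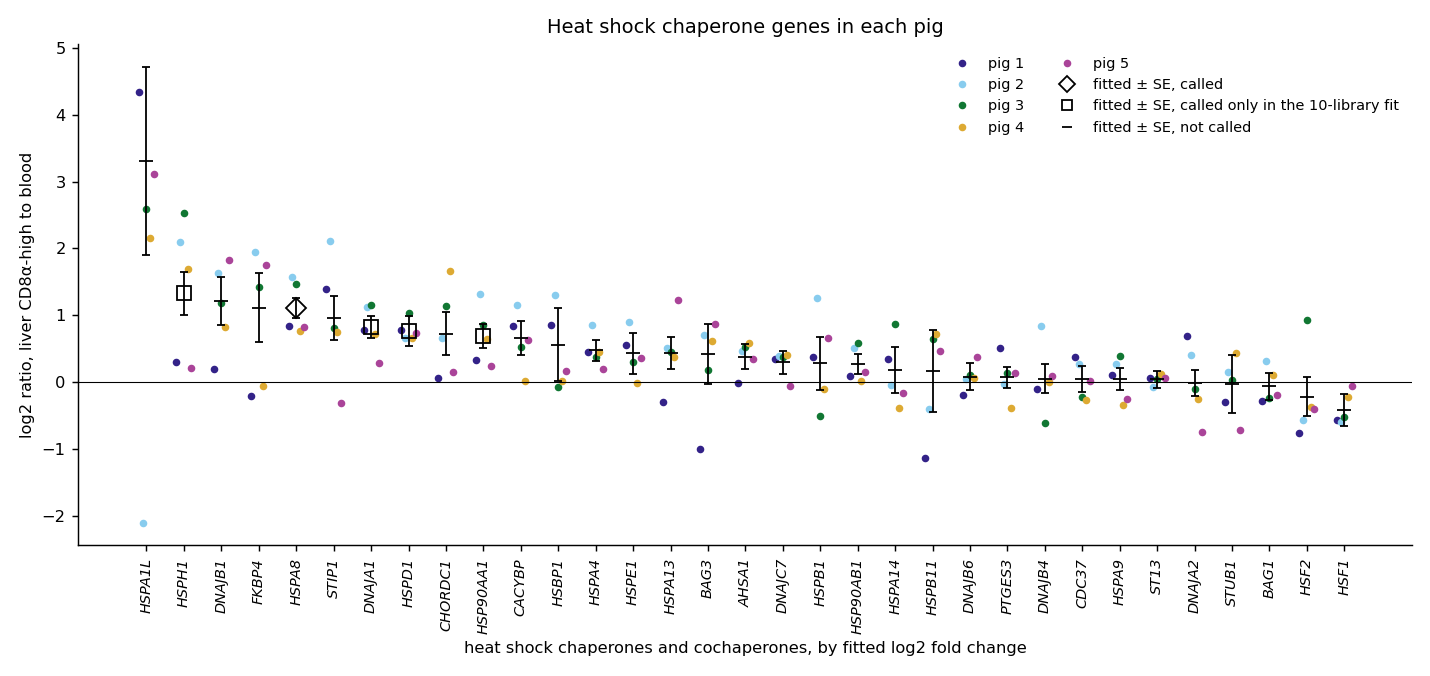
Log2 ratio of liver CD8α-high to blood level (y axis) for the 33 chaperone and cochaperone genes tested (x axis, ordered by fitted log2 fold change). Coloured points are the pigs, as log2 of CPM + 0.5 in each tissue, black symbols the fitted value ± SE. The 5 points of *HSPA8* all lie above 0, pig 2 is often the highest point, and *HSPA1L*, with few reads, scatters most.

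*CIRBP* fell. This gene (chr2:77185295-77194373) encodes the cold-inducible RNA-binding protein and had 476, 534, 458, 452 and 354 CPM in blood and 197, 195, 232, 213 and 256 CPM in liver. The lowest blood level, in pig 5, was above the highest liver level, of the same pig, and the log2 fold change was -1.05 (SE 0.17, adjusted p = 0.0234, edgeR). CD8α-dim cells were at 138 to 247 CPM. Its coordinates overlap *C2H19orf24* by 3954 bases, and the strand setting of the counting is not stated, but that gene had a mean of 53 reads per library. *RBM3*, the other main cold-inducible RNA-binding protein, had 143, 230.0, 203, 353 and 171 CPM in blood and 175, 157, 182, 209.6 and 156 CPM in liver. The ranges overlapped and the log2 fold change was -0.27 (SE 0.32, adjusted p = 0.993, edgeR). *SRSF5*, a splicing factor whose level also follows temperature, had 642, 669, 521, 474 and 507 CPM in blood and 357, 249, 366, 385 and 378 CPM in liver. It did not overlap and was called in the 10-library fit with -0.69 (SE 0.13, adjusted p = 0.0131 with 10 libraries and 0.283 with 15, edgeR). Of the 6 genes of this list, 5 were below 0, 1 fell and 0 rose in the 15-library fit. In the 10-library fit and in DESeq2, 2 were called lower (*CIRBP* and *SRSF5*) and 1 higher (*NFIL3*, described below).

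The splicing kinase *CLK1* rose. CLK kinases phosphorylate SR proteins, the family of splicing factors with serine and arginine repeats. *CLK1* (chr15:104553512-104562348) had 418, 387, 436, 258 and 783 CPM in blood and 999, 896, 949, 928 and 931 CPM in liver. Blood levels spanned a 3-fold range whereas the liver levels were nearly equal, and pig 5, with the highest blood level, showed the smallest difference. The log2 fold change was 1.12 (SE 0.20, adjusted p = 0.0495, edgeR), close to the threshold, and CD8α-dim cells had 511 to 1117 CPM. *CLK4* had 78.3, 57.6, 58.6, 55.7 and 70.3 CPM in blood and 93.2, 93.3, 107, 123 and 134 CPM in liver, without overlap, and 0.79 (SE 0.16, adjusted p = 0.0131 with 10 libraries and 0.273 with 15, edgeR). *CLK2* and *CLK3* had -0.31 (SE 0.24) and -0.49 (SE 0.30). *SRSF7* had 424 to 576 CPM in blood and 623 to 651 CPM in liver, with 0.45 (SE 0.10, adjusted p = 0.0347 with 10 libraries and 0.444 with 15, edgeR), and *RSRP1*, an arginine and serine rich protein, had 296 to 361 and 432 to 567 CPM with 0.62 (SE 0.11, adjusted p = 0.00595 with 10 libraries and 0.98 with 15, edgeR). Of the 24 genes of this list, 1 rose and 0 fell, the median was 0.12, and in the 10-library fit 4 were called higher and 1 (*SRSF5*) lower.

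*CKS2* was the only gene of the cell cycle list that rose in the 15-library fit, and 0 fell. *CKS2* (chr14:904762-910292) encodes a small subunit that binds cyclin-dependent kinases. It had 27.9, 35.9, 26.1, 38.7 and 29.7 CPM in blood and 63.2, 128, 82.0, 71.7 and 80.7 CPM in liver, which did not overlap, and a log2 fold change of 1.40 (SE 0.21, adjusted p = 0.00869, edgeR). Its coordinates overlap the long noncoding RNA *LOC102165122* by 4158 bases, which had a mean of 7.93 reads per library. Its paralog *CKS1B* had 1.71 to 10.9 CPM in blood and 2.39 to 17.9 CPM in liver and a log2 fold change of 0.91 (SE 0.51, adjusted p = 0.918, edgeR). The proliferation marker *MKI67* lay just outside the threshold in the opposite direction. It had 43.6, 24.4, 24.2, 103 and 63.5 CPM in blood and 9.32, 3.43, 16.7, 28.3 and 22.7 CPM in liver, lower in each pig but with overlapping ranges, and -1.78 (SE 0.35, adjusted p = 0.0875, edgeR) in the 15-library fit against -1.71 (SE 0.27, adjusted p = 0.00206, edgeR, 10 libraries). *TOP2A* had 1.24 (SE 0.58) and *MCM3* 1.00 (SE 0.45). Of 26 cell cycle and replication genes tested, 1 rose and 0 fell, 23 were above 0 with a median of 0.32, and 4 were higher and 1 lower at an unadjusted p under 0.05. Over all genes tested, the shares were 47.8% above 0, 3.34% higher and 2.57% lower.

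The other genes that fell were 1 mitochondrial gene and 1 noncoding RNA. *CYTB*, the cytochrome b subunit of respiratory complex III (mitochondrial genome, 15342 to 16481), had 3812, 3671, 3521, 4681 and 2623 CPM in blood and 1898, 1766, 2521, 2569 and 2039 CPM in liver. The ranges came close to each other but did not overlap, and the log2 fold change was -0.76 (SE 0.14, adjusted p = 0.0495, edgeR). All 13 protein-coding mitochondrial genes were tested, and all 13 had a log2 fold change below 0 (median -0.29), 6 of them at an unadjusted p under 0.05. Of all genes tested, 47.8% were above 0 and 2.57% were lower at an unadjusted p under 0.05. *ND2* and *ND3*, subunits of complex I, were called in the 10-library fit with -0.52 (SE 0.09, adjusted p = 0.00594 with 10 libraries and 0.436 with 15, edgeR) and -0.50 (SE 0.10, adjusted p = 0.0137 with 10 libraries and 0.555 with 15, edgeR). Together the 13 took 3.15% to 4.88% of all counts in blood, 2.97% to 3.41% in liver CD8α-high and 2.43% to 3.23% in CD8α-dim cells. *LOC106510428*, annotated as a long noncoding RNA (chr5:90702808-90855944), had 27.9, 27.4, 27.4, 96.1 and 34.1 CPM in blood and 4.49, 2.64, 6.41, 1.03 and 3.34 CPM in liver. All liver levels were far below all blood levels, and the log2 fold change was -3.60 (SE 0.61, adjusted p = 0.0277, edgeR). The gene overlaps the highly expressed antiproliferation gene *BTG1* by 2743 bases, where reads cannot be assigned without strand. For *BTG1* itself, liver minus blood was 0.16 on the log2 scale (adjusted p = 0.993, edgeR).

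Near the threshold, the 3 called genes with the largest adjusted p were *CYTB* and *CLK1* at 0.0495 and *LOC106510428* at 0.0277, and the 3 next genes were *MKI67* and *CCL4* at 0.0875 and *DNAJA1* at 0.0932 (all edgeR). *CCL4*, a chemokine of activated NK cells, had 0, 4.66, 1.63, 1.45 and 1.36 CPM in blood and 10.01, 14.0, 15.6, 37.7 and 21.0 CPM in liver. The ranges did not overlap, with 3.56 (SE 0.70, adjusted p = 0.0875, edgeR) in the 15-library fit and 3.56 (SE 0.56, adjusted p = 0.00169, edgeR, 10 libraries), on 0 to 17 reads per blood library. The chemokine *XCL1* had 28.7, 10.4, 12.5, 36.9 and 11.9 CPM in blood and 69.1, 40.1, 19.5, 49.8 and 47.3 CPM in liver, higher in every pig, and 1.25 (SE 0.26, adjusted p = 0.0189 with 10 libraries and 0.522 with 15, edgeR). *TNF* had 3.98 to 13.6 CPM in blood and 14.2 to 28.7 CPM in liver with a log2 fold change of 1.32 (SE 0.35, adjusted p = 0.364, edgeR) and *IFNG* one of 1.53 (SE 0.96, adjusted p = 0.97, edgeR). Of the 8 cytokine genes tested, 7 were above 0 (median 0.92) and 2 were called in the 10-library fit, and of the 12 tested genes of the TNF receptor and ligand list all had a value above 0 (median 0.31), 3 of them at an unadjusted p under 0.05 and 0 called in either edgeR fit or in DESeq2. Among all genes tested, 47.8% were above 0 and 3.34% were higher at an unadjusted p under 0.05. The 10-library fit called 0.466% of its genes higher.

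Receptor and signalling genes of the 10-library fit include *CRTAM* and *TNFSF10*. *CRTAM*, an adhesion receptor of activated cytotoxic cells, had 102, 109, 122, 54.2 and 114 CPM in blood and 228, 179.8, 191, 156 and 184 CPM in liver. The ranges did not overlap, with 0.94 (SE 0.20, adjusted p = 0.129, edgeR) in the 15-library fit and 0.95 (SE 0.15, adjusted p = 0.00146, edgeR, 10 libraries). The death ligand gene *TNFSF10* (TRAIL) had 65.8 to 190.4 and 183 to 234 CPM and 0.64 (SE 0.15, adjusted p = 0.0435 with 10 libraries and 0.719 with 15, edgeR). The transcriptional regulator *NFIL3*, which NK cells need for their development, had 118, 103, 113, 263 and 128 CPM in blood and 242, 174, 220.0, 304 and 199 CPM in liver, higher in each pig, and 0.73 (SE 0.13, adjusted p = 0.00699 with 10 libraries and 0.279 with 15, edgeR).

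Genes lower in liver in the 10-library fit included the egress receptor *S1PR1* and, from the list of glucocorticoid-induced genes, *SGK1* and *DDIT4*. *S1PR1*, which guides lymphocytes out of tissues into blood, had 326, 133, 106, 85.6 and 98.9 CPM in blood and 139, 82.5, 67.5, 41.2 and 28.7 CPM in liver. Each pig had the lower level in liver although pigs differed widely, and the value was -1.09 (SE 0.25, adjusted p = 0.256, edgeR) in the 15-library fit and -1.06 (SE 0.16, adjusted p = 0.00146, edgeR, 10 libraries). *S1PR5* and *KLF2* had log2 fold changes of 0.05 (SE 0.27) and -0.11 (SE 0.46), and of 14 egress genes 11 were below 0 (median -0.17) with 0 calls in the 15-library fit, 1 (*S1PR1*) in DESeq2 and 2 lower at an unadjusted p under 0.05. *SGK1*, a kinase gene, had 28.2, 72.9, 19.0, 150.0 and 20.1 CPM in blood and 9.32, 12.7, 10.04, 16.03 and 18.6 CPM in liver, lower in each pig and most in pig 4, with -1.71 (SE 0.34, adjusted p = 0.0135 with 10 libraries and 0.263 with 15, edgeR). *DDIT4*, an inhibitor of mTOR signalling, had 159, 351, 186, 255 and 116 CPM in blood and 99.5, 143, 54.1, 62.4 and 110.1 CPM in liver with -1.16 (SE 0.20, adjusted p = 0.00594 with 10 libraries and 0.249 with 15, edgeR). In the same list, *TSC22D3* had 0.17 (SE 0.28) and *PER1* 0.06 (SE 0.23) on the log2 scale, and neither was called. Of its 11 tested genes, 6 were below 0 and 3 were lower and 1 higher at an unadjusted p under 0.05. *TCF7*, a factor of early lymphocytes, had 46.3 to 116 CPM in blood and 19.5 to 72.2 CPM in liver with -0.85 (SE 0.17, adjusted p = 0.0131 with 10 libraries and 0.735 with 15, edgeR).

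Further calls of the 10-library fit that belong to none of the lists included regulators of the cell cycle and of signalling. *CDC25B*, a phosphatase that activates cyclin-dependent kinases, had 333, 258, 356, 221 and 205 CPM in blood and 168, 114, 214, 134 and 179.6 CPM in liver. It was lower in each pig, with -0.75 (SE 0.13, adjusted p = 0.00656 with 10 libraries and 0.272 with 15, edgeR), and CD8α-dim cells were lower still at 26.1 to 62.3 CPM. *PTGDR*, a receptor for prostaglandin D, had 431, 222, 215, 332 and 428 CPM in blood and 245, 127, 143, 238 and 262 CPM in liver, again lower in each pig, with -0.67 (SE 0.11, adjusted p = 0.00421 with 10 libraries and 0.279 with 15, edgeR). On the side of higher levels, the copper chaperone *COX17* of cytochrome c oxidase had 53.1, 75.1, 73.5, 92.1 and 85.6 CPM in blood and 163, 143, 138, 118 and 129.9 CPM in liver. Its ranges did not overlap, with 0.89 (SE 0.16, adjusted p = 0.00699 with 10 libraries and 0.47 with 15, edgeR). *ZBTB1*, a zinc finger factor that lymphocyte development requires, had 29.5, 35.4, 39.9, 27.1 and 35.8 CPM in blood and 77.4, 63.5, 49.6, 76.5 and 78.6 CPM in liver, also without overlap, and 1.05 (SE 0.20, adjusted p = 0.0105 with 10 libraries and 0.153 with 15, edgeR). *SPRY2*, an inhibitor of kinase signalling, had 76.4 to 125 CPM in blood and 127 to 223 CPM in liver, and *MDM2*, the ubiquitin ligase of p53, had 44.4 to 62.4 and 64.6 to 94.8 CPM, neither with overlap. Their values were 0.76 (SE 0.15, adjusted p = 0.0131 with 10 libraries and 0.44 with 15, edgeR) and 0.68 (SE 0.16, adjusted p = 0.0435 with 10 libraries and 0.606 with 15, edgeR). The dynein light chain gene *DYNLL1* had 45.9 to 81.4 CPM in blood and 100.3 to 133 CPM in liver with 0.78 (SE 0.16, adjusted p = 0.0147 with 10 libraries and 0.648 with 15, edgeR). *PELI2*, a ubiquitin ligase of innate signalling, had 13.8, 7.40, 13.8, 11.2 and 2.73 CPM in blood and 3.11, 1.05, 1.39, 0.517 and 0 CPM in liver, few reads and lower in each pig, with -3.27 (SE 0.71, adjusted p = 0.0244 with 10 libraries and 0.421 with 15, edgeR).

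The CD8α-high and the CD8α-dim cells were sorted from the same liver suspension by their CD8α staining. The levels of genes that separate CD8α-dim from blood cells were therefore followed in each pig. In bulk libraries, fewer cells of a type and less RNA per cell cannot be told apart. For each gene the position of the liver CD8α-high level was computed as the percent of the way from the blood level to the CD8α-dim level of the same pig. Over 10 genes that are high in CD8α-dim cells the median position was 21.9% in pig 1, -0.306% in pig 2, 5.80% in pig 3, 2.36% in pig 4 and -2.86% in pig 5. Over 12 genes that are low in CD8α-dim cells it was 22.05%, -0.0062%, 10.6%, 1.64% and -0.509% in the same order. By both lists, the liver library of pig 1 lay farthest from blood, that of pig 3 next, and the other 3 lay near the blood level. The position in pig 3 rests on the CD8α-dim library that stood apart, and without pig 3 the median over pigs was 1.03% for the first list and 0.818% for the second, against 2.36% and 1.64% with it. The lists were chosen with results of these data known, and the spread between genes of 1 pig was wide, for example from 11.2% to 132% in pig 1, where *GZMA* (granzyme A) was highest.

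**Figure D4:**
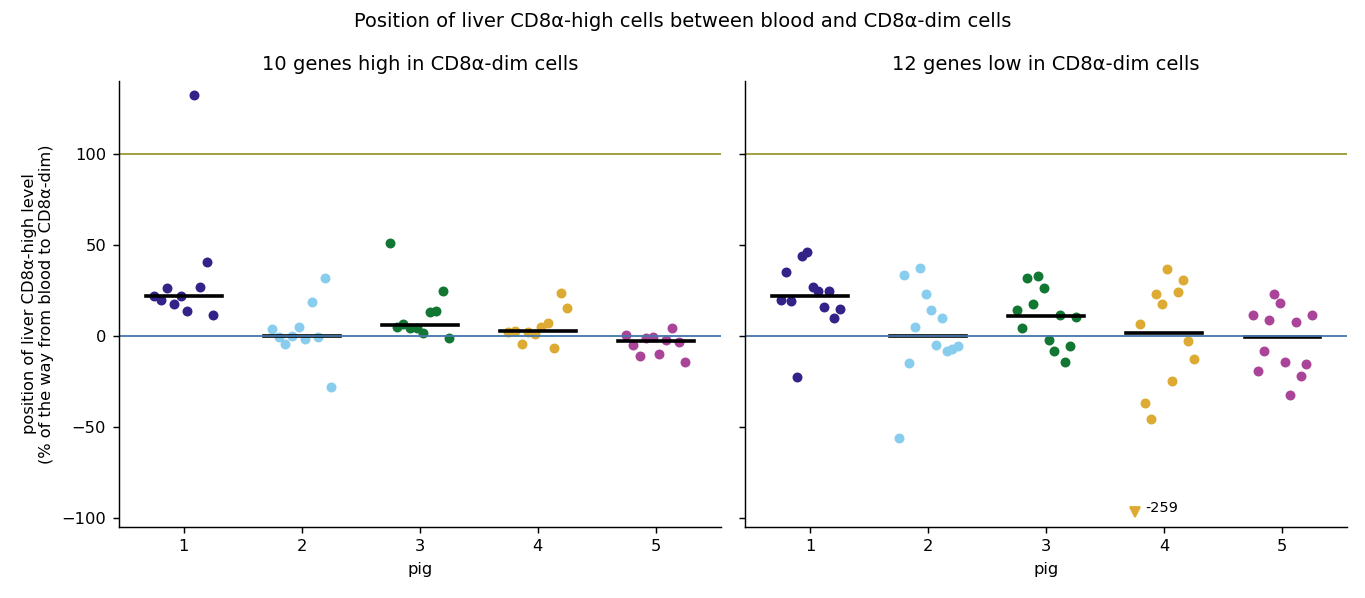
Position of the liver CD8α-high level in percent of the way from the blood level to the CD8α-dim level (y axis) in each of the 5 pigs (x axis), for 10 genes high (left) and 12 genes low (right) in CD8α-dim cells. Points are genes, black bars medians, and the blue and olive lines mark the blood (0) and CD8α-dim (100) levels. Pig 1 has the highest medians, 21.9% and 22.05%, and 1 value of -259% (*CX3CR1* in pig 4, triangle) lies below the axis.

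None of the reference genes was called in the 15-library fit (0 of 22, of which 4 had an unadjusted p under 0.05), 3 of them were called in the 10-library fit and 2 in DESeq2. The chemokine receptor gene *CXCR6*, a marker of resident cells, had 0, 0.548, 4.88, 0.361 and 2.05 CPM in blood, 153, 23.2, 46.6, 17.1 and 5.25 CPM in liver CD8α-high and 700.2, 607, 86.2, 837 and 729 CPM in CD8α-dim cells. Liver CD8α-high cells were above all blood cells in each pig, but pig 1 was about 3 times as high as the next pig and pig 5 was near the blood levels. The log2 fold change was 4.48 (SE 0.91, adjusted p = 0.112, edgeR), and 4.59 (SE 0.63, adjusted p = 0.00036, edgeR, 10 libraries), and with the pigs left out in turn it ranged from 3.42 to 5.64. *FYCO1* covers the whole of *CXCR6* in the annotation and its own difference was -0.31 on the log2 scale (adjusted p = 0.966, edgeR). The other genes high in CD8α-dim cells had log2 fold changes of 0.97 (*PARP14*), 0.94 (*PLXNC1*), 0.86 (*COTL1*), 0.66 (*GZMA*), 0.51 (*EOMES*), 0.37 (*CD96*), 0.14 (*LYST*), -0.02 (*JAK1*) and -0.17 (*NCR1*). *PARP14* was called in the 10-library fit (adjusted p = 0.0101, edgeR). Among genes low in CD8α-dim cells, 3 of 12 (*KIF7*, *PTH1R* and *SEMA4D*) were lower in liver than in blood in all 5 pigs, where 6.09% of all genes were, with 331, 296, 310.2, 359.6 and 387 CPM of *KIF7* in blood and 189, 186, 209, 278 and 297 CPM in liver. Its log2 fold change was -0.54 (SE 0.32) and its position 22.7% to 44.1%, and it was called in the 10-library fit (adjusted p = 0.0199, edgeR). *PTH1R* had -0.43 (SE 0.25) and a position of 17.3% to 46.1%, and *SEMA4D* had -0.21 (SE 0.23) and 7.33% to 24.3%. *S100A4* had -0.22, *KLRG1* -0.20, *GNLY* -0.12, *SPN* -0.05, *ZEB2* -0.04, *TBX21* 0.05, *S1PR5* 0.05, *S100A6* 0.10 and *CX3CR1* 0.37 on the log2 scale.

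The 8 called genes were set against the level that a mixture of each pig's own blood and CD8α-dim cells would give. The median position of the 10 genes high in CD8α-dim cells was taken as the share of CD8α-dim cells. A position below 0 was taken as a share of 0. This share was assumed and not measured as a fraction of cells. By the paper, the sorted liver CD8α-high population was almost pure on average, with less room for other cells than the largest share taken here. In pig 1 that share was 21.9%, the median of genes at 11.2% to 132%. A mixture would lower the sort gene *CD8A*, which was higher than in blood in pigs 1 and 4 and lower in pig 3. Whether CD8α-dim cells were present was not tested. In pigs 2 and 5 the share was 0, so that the mixture equalled the blood level and gave nothing to compare. The share of pig 3 rests on the CD8α-dim library that stood apart. In pigs 1, 3 and 4 the liver CD8α-high level was farther from the blood level than the mixture for each of the 8 genes, which had been called for their difference from blood. In pig 1, which had the largest share, the mixture gave 103 CPM of *NR4A2* and the library had 259 CPM. For *EGR3* the mixture gave 17.3 CPM and the library had 62.2 CPM, for *HSPA8* 695 and 1045 CPM, and for *CIRBP* 423 and 197 CPM. For *CXCR6*, pigs 1 and 4 were not farther from blood than the mixture, with 154 CPM in the mixture and 153 CPM in the library of pig 1 and 20.1 and 17.1 CPM in pig 4. In pig 3 the mixture gave 9.60 CPM and the library had 46.6 CPM. *CXCR6* was 1 of the 10 genes that set the share.

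Of the 8 called genes, 4 lay between the fitted blood and CD8α-dim levels, 4 lay beyond the CD8α-dim level on the same side and 0 went against the CD8α-dim direction. The 4 beyond were *NR4A2*, *CKS2*, *CLK1* and *LOC106510428*. A test of liver CD8α-high against CD8α-dim cells passed for 1 of them, *CKS2*, with a difference of 0.75 (adjusted p = 0.0166, edgeR). Its CD8α-dim levels were 49.4, 49.9, 52.6, 41.0 and 53.0 CPM, below the liver CD8α-high level of the same pig in each case. For *NR4A2*, *CLK1* and *LOC106510428* the difference was 0.21, 0.32 and -0.29 (adjusted p = 0.669, 0.347 and 0.826, edgeR). Without the CD8α-dim library of pig 3, 3 genes lay between, 5 beyond and 0 against, as *HSPA8*, whose level was close to that of CD8α-dim cells, changed sides. The differences from CD8α-dim cells were then 0.07 for *NR4A2*, -0.77 for *EGR3*, 0.01 for *HSPA8*, 0.47 for *CLK1* and 0.81 for *CKS2* on the log2 scale (adjusted p = 0.894, 0.243, 0.981, 0.0962 and 0.00894, edgeR). They were -0.29 for *LOC106510428*, 0.36 for *CIRBP* and 0.32 for *CYTB* (adjusted p = 0.838, 0.172 and 0.124, edgeR).

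Of the 85 calls of the 10-library fit, 36 lay between both other populations, 33 lay beyond the CD8α-dim level and 16 went against it (36, 36 and 13 without the CD8α-dim library of pig 3). Genes were placed by the signs of fitted differences alone. CD8α-dim minus blood was only -0.01 for *STK17B* and 0.07 for *LOC110255652* (adjusted p = 0.973 and 0.888, edgeR). Of the genes against, this difference passed the test only for *MS4A1*, *LOC102165485*, *LOC100519934*, *CD55*, *RALGPS2* and *SOCS1*. The split over all genes tested is not given here. For 18 of the 49 genes beyond or against, the difference between liver CD8α-high and CD8α-dim cells passed the test of the 15-library fit too, and all 18 passed it without the CD8α-dim library of pig 3. The differences share libraries, since liver CD8α-high cells enter both tests. Of these 18 genes, 8 were above and 10 below both other populations. Among the calls of DESeq2, 11 genes met both tests, 2 above and 9 below. Of the 18 genes of the 10-library fit, those above both were *CKS2*, *IER2*, *SOCS1*, *DYNLT1*, *CDK2AP1*, *MAPK6*, *SRSF7* and *STK17B*. *SOCS1*, a feedback inhibitor of cytokine signalling, had 16.3, 58.4, 49.4, 37.2 and 85.0 CPM in blood, 44.9, 174, 71.9, 61.4 and 85.7 CPM in liver CD8α-high and 7.89, 53.3, 26.3, 24.7 and 33.2 CPM in CD8α-dim cells. It was higher in liver CD8α-high than in blood in every pig, though in pig 5 by less than 1 CPM, and its log2 fold change was 0.85 (SE 0.24, adjusted p = 0.436, edgeR) in the 15-library fit and 0.86 (SE 0.20, adjusted p = 0.0466, edgeR, 10 libraries), while CD8α-dim minus blood was -0.81 (adjusted p = 0.0262, edgeR). *IER2* had 114, 128, 119, 129 and 89.1 CPM in CD8α-dim cells, below all liver CD8α-high levels. *DYNLT1*, a dynein light chain, had 26.0 to 58.7 CPM in blood, 48.8 to 71.2 CPM in liver CD8α-high and 19.9 to 27.2 CPM in CD8α-dim cells, and *CDK2AP1* had 4.78 to 14.1, 14.5 to 28.3 and 0.487 to 11.04 CPM. *MAPK6* and the kinase gene *STK17B* had nearly equal means in blood and CD8α-dim cells, 68.2 ± 14.0 and 69.2 ± 3.24 CPM for *MAPK6* against 107 ± 12.8 CPM in liver CD8α-high cells (SD, n = 5), and 887 ± 89.0 and 887 ± 162 CPM for *STK17B* against 1174 ± 68.1 CPM.

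Those below both other populations were *MS4A1*, *CD55*, *CD1.1*, *RALGPS2*, *GPR183*, *VAMP1*, *SLC9A7*, *LOC102165485*, *LOC100519934* and *LOC110255652*. *MS4A1*, which encodes the B cell antigen CD20, had 27.1, 33.2, 61.6, 19.9 and 6.14 CPM in blood, 23.5, 9.76, 3.07, 1.21 and 0 CPM in liver CD8α-high and 239, 313, 152, 475 and 156 CPM in CD8α-dim cells. It was lower in liver CD8α-high than in blood in each pig although the ranges overlapped, with -2.28 (SE 0.64, adjusted p = 0.436, edgeR) in the 15-library fit and -2.63 (SE 0.53, adjusted p = 0.014, edgeR, 10 libraries), while CD8α-dim minus blood was 3.42 (adjusted p = 0.000402, edgeR). All 8 tested B cell markers of 9 had a log2 fold change below 0 (median -1.50), 4 were lower at an unadjusted p under 0.05 and 0 passed the adjusted test in the 15-library fit. Their summed level was 63.1 to 172 CPM in blood, 37.9 to 83.6 CPM in liver CD8α-high and 359 to 966 CPM in CD8α-dim cells, lower in liver CD8α-high than in blood in all 5 pigs. Plasma cell markers had summed levels of 81.8 to 109.9 CPM in blood and 81.2 to 123 CPM in liver, and 2 of 5 were lower and 1 higher at an unadjusted p under 0.05. The joining chain gene *JCHAIN* was lower in all 5 pigs, with -1.32 (SE 0.39, adjusted p = 0.47, edgeR), and *TNFRSF17*, at 0 to 3.26 CPM in blood and 0 to 1.12 CPM in liver, was called lower in DESeq2 (adjusted p = 0.0476) and not in edgeR (adjusted p = 0.405). *LOC102165485*, annotated as the constant region of an antigen receptor gene, had 9.21, 15.9, 26.1, 10.1 and 7.85 CPM in blood, 4.49, 0.264, 3.62, 2.07 and 0.239 CPM in liver CD8α-high and 9.97, 104, 275, 29.5 and 40.5 CPM in CD8α-dim cells. No liver CD8α-high level reached a blood level, and the value was -2.93 (SE 0.63, adjusted p = 0.0243 with 10 libraries and 0.256 with 15, edgeR).

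*CD55*, a complement regulator, had 92.1, 44.4, 46.7, 23.9 and 24.2 CPM in blood, 34.2, 16.3, 8.36, 13.1 and 14.1 CPM in liver CD8α-high and 129.6, 242, 23.9, 216 and 119 CPM in CD8α-dim cells. Liver CD8α-high was lowest of the populations in each pig, with -1.37 (SE 0.26, adjusted p = 0.00849 with 10 libraries and 0.421 with 15, edgeR). *GPR183*, a receptor for oxysterols that positions lymphocytes, had 210.3, 60.6, 57.3, 41.9 and 98.6 CPM in blood and 100.1, 34.8, 42.9, 22.4 and 51.6 CPM in liver, about 2 times lower in pigs 1 and 5, with -0.82 (SE 0.16, adjusted p = 0.0131 with 10 libraries and 0.761 with 15, edgeR). *SLC9A7*, a sodium and proton exchanger, had 204, 121, 99.9, 154 and 129 CPM in blood, 115, 58.0, 78.9, 63.4 and 90.04 CPM in liver CD8α-high and 124 to 259 CPM in CD8α-dim cells. It came nearest to a call of the 15-library fit among these 10 genes, with -0.81 (SE 0.17, adjusted p = 0.138, edgeR). *VAMP1*, a vesicle protein, had 19.0 to 28.7 CPM in blood, 6.06 to 13.4 CPM in liver CD8α-high and 16.3 to 48.2 CPM in CD8α-dim cells, so that liver CD8α-high overlapped neither. The MHC class II list, whose genes B cells also express, had a median of -0.17 over 13 genes with 0 calls in either edgeR fit and in DESeq2 and 3 genes lower at an unadjusted p under 0.05, and *SLA-DQA1* had 112 to 225 CPM in blood, 63.8 to 186 CPM in liver CD8α-high and 174 to 649 CPM in CD8α-dim cells. The part of the B cell marker level in these differences was not tested.

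**Figure D5:**
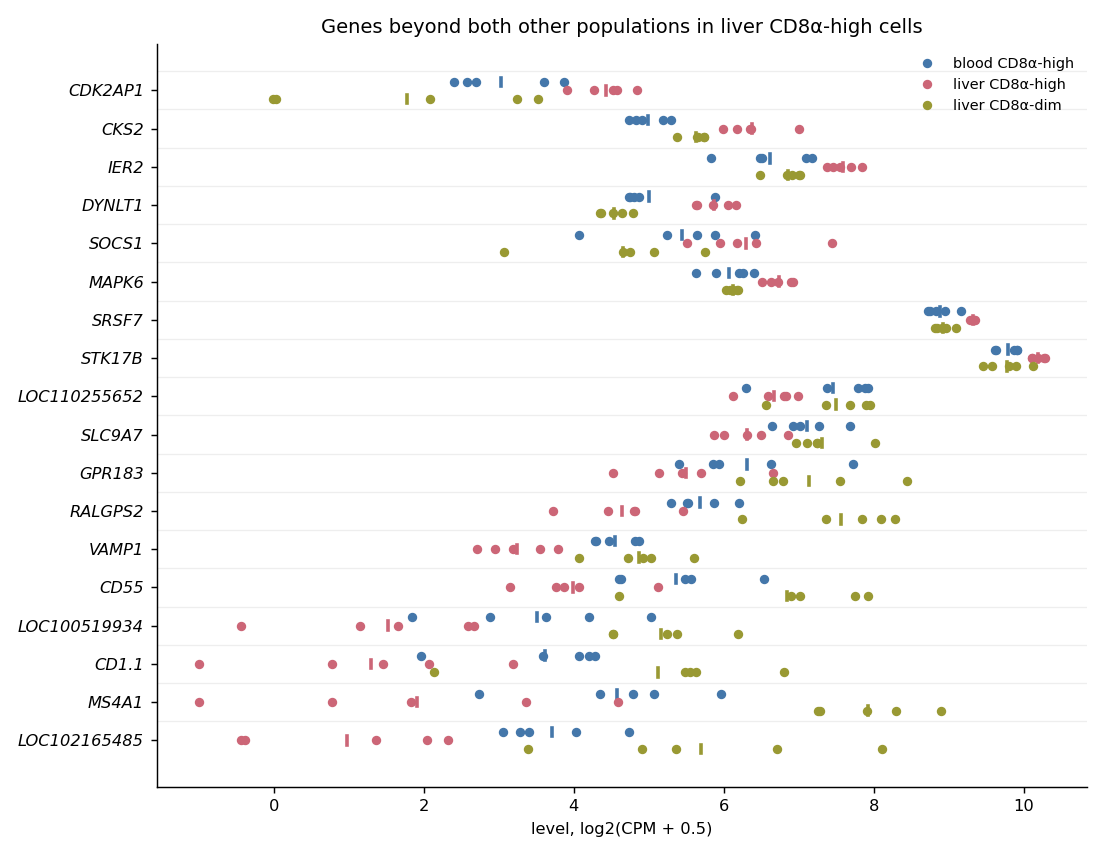
Levels, as log2 of CPM + 0.5 (x axis), of the 18 genes (y axis) called in the 10-library fit whose liver CD8α-high level lay above (upper 8) or below (lower 10) those of both other populations with a test against each. Points are the 5 pigs of blood CD8α-high (blue), liver CD8α-high (red) and CD8α-dim (olive) cells and short bars the means of the log2 values. Red points lie to the right of most others for the upper 8 genes and to the left for the lower 10.

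Of the 29 functional lists examined, 5 held a gene called in the 15-library fit and 24 held none. Of these 24, 10 held a gene called in DESeq2, 13 held one called in the 10-library fit and 11 held neither. Lytic granule effectors had a median of 0.13 over 15 genes, NK receptors and adaptors 0.01 over 17, and NK lineage factors -0.02 over 22. The granule genes *PRF1* (perforin) and *GZMB* had log2 fold changes of 0.13 (SE 0.19) and -0.05 (SE 0.25). Ribosome biogenesis genes had a median of 0.31 over 18, with 3 higher at an unadjusted p under 0.05 and 0 called in edgeR or DESeq2, and inhibitory regulators 0.20 over 14. Interferon-stimulated genes had a median of 0.21 over 21, glycolysis and hypoxia genes -0.001 over 22, oxidative stress genes 0.06 over 13, proteasome genes 0.03 over 18 and circadian clock genes -0.13 over 17. Apoptosis genes of the BCL2 list had 0.20 over 14, cytoskeleton genes 0.08 over 16, quiescence genes 0.15 over 19 and residency genes 0.07 over 20. In the 10-library fit the called members of these lists, beyond those given above, were *ZFP36L1*, an mRNA decay factor, with 0.61 (SE 0.12, adjusted p = 0.0106 with 10 libraries and 0.308 with 15, edgeR), and the tubulin gene *TUBB6* with -0.84 (SE 0.19, adjusted p = 0.0347 with 10 libraries and 0.924 with 15, edgeR).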

How the data were processed

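RNA of sorted NK cells of 5 pigs was measured in 15 libraries made with a 3′ mRNA kit, 5 per population. Reads were trimmed with QuasR and aligned with HISAT2, through Rhisat2, to Sscrofa11.1, and the authors deposited raw counts of reads per gene, without normalization. How reads were counted (tool, strand, multiple alignments) is not given in the sources used here. Each of the 15 count columns belonged to 1 population and pig by its name, and 0 columns remained without one. Pairing comes from the donor numbers and from the paper, by which blood and liver were taken from the same animals. Blood and liver CD8α-high libraries of 1 pig deviated together from their population means (correlation 0.115 to 0.193 of log2 CPM with a prior count of 2, mean -0.042 between pigs), and no pair of libraries of 1 population differed by as little as sampling noise (chi-square per degree of freedom 9.41 to 46.7). The mean correlation between pigs largely follows from that within pigs, since deviations from a population mean cancel, and is no separate baseline.

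The test was edgeR 4.0.16 in R 4.3.3 (TMM, default filter by population, quasi-likelihood test, population and pig as terms, all 15 libraries, as the authors used all populations in each analysis). Adjusted p-values are Benjamini-Hochberg over all genes tested and the threshold was 0.05. The standard error (SE) is the absolute log2 fold change divided by the square root of F. DESeq2 1.42.0, other filters, scalings, thresholds, libraries and blocks were alternatives, and the scripts were tested on simulated data. Direction in a pig used log2 of CPM + 0.5. Gene coordinates come from a RefSeq table of the same assembly without strand. A planned motif search in promoters was not run, since no sequence was used here. Results on some genes are not reported here. Members and gene lists were chosen with earlier results of these data known. Named by rule were *NR4A2*, *EGR3*, *HSPA8*, *CIRBP*, the 10 largest rises and falls that the 15-library fit called with an average log2 CPM of at least 4 and 1 direction in all 5 pigs, its called list members, its called genes outside both other populations with a test (*CKS2* only), the reference genes of CD8α-dim cells and 3 genes on each side of the threshold. All other genes, such as those of the 10-library fit alone, were chosen after their values were seen. Depth of 2874092 to 5680221 counts gives few reads for genes of a few CPM. Plots were made in matplotlib 3.10.9 under Python 3.11.15.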

Additional observations from a re-analysis of the deposited data

Results flagged for a closer look

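A single pig lay far from the other 4 of its population in 5 of 30 values checked with Dixon's test, where chance alone gives about 1 in 20 groups. *CKS2* was 128 CPM in the liver CD8α-high library of pig 2 and 63.2 to 82.0 CPM in the others. With this pig left out, the liver level was still above the blood level in each of the 4 remaining pigs, but the adjusted p of *CKS2* in the 15-library fit was no longer under 0.05, while in the 10-library fit it was. *LOC106510428* was 96.1 CPM in the blood of pig 4 and 27.4 to 34.1 CPM in the other blood libraries. *CXCR6* was 153 CPM in the liver CD8α-high library of pig 1 and 5.25 to 46.6 CPM in the others. Erythroid markers summed to 323 CPM in the blood of pig 4, mostly *HBB*, against 0 to 6.03 CPM in other blood libraries. They summed to 58.7 CPM in the liver CD8α-high library of pig 1, against 0 to 6.205 CPM in other liver libraries.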

How the results depend on the processing

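Genes called, those rising, those falling, those outside the range of the other populations and those in the gene lists numbered 8, 5, 3, 4 and 6 in the 15-library fit with the pig as block. In the same order they numbered 7, 5, 2, 4 and 6 with no replicate block (*CLK1* and *CYTB* lost), 47, 23, 24, 29 and 23 in DESeq2 with pig, 25, 15, 10, 19 and 14 in DESeq2 without pig, 85, 48, 37, 49 and 31 in the fit of 10 libraries, and 97, 52, 45, 50 and 29 with no filter on low counts. In a fit of 10 libraries without the pig as block, added after the data were seen, they numbered 16, 12, 4, 9 and 9. At an adjusted p under 0.01, 4 genes were called, 0 of them falling and 2 outside the range. DESeq2's size factors, the stricter filter, robust dispersion and a threshold of 0.1 kept each count within 1.5 times. With a pig left out in turn, calls ranged from 2 to 15 (rising 2 to 10, falling 0 to 5, outside 1 to 8, in lists 2 to 9), and in the 10-library fit, without pigs 1 to 5, calls numbered 57, 17, 58, 46 and 63 (rising 29, 10, 35, 27 and 38, falling 28, 7, 23, 19 and 25, outside 31, 8, 30, 22 and 31, in lists 27, 12, 23, 23 and 28). *NR4A2* was called whichever pig was left out, *EGR3* without each but pig 1, *HSPA8* without each but pig 2, *CKS2* without pig 1, 3 or 4, *CIRBP* and *CLK1* without pig 3 or 5, and *CYTB* and *LOC106510428* only without pig 3, whereas in the 10-library fit all 8 were called whichever pig was left out. Leaving out the CD8α-dim library of pig 3 gave 19 calls (13 rising, 6 falling, 10 outside, 13 in lists), and leaving out the liver CD8α-high library of pig 1 gave 7, with 4 of the 8. The cause of these shifts was not tested. No direction reversed among the named genes past the threshold. The fitted log2 fold changes over all settings ranged from 2.07 to 2.48 for *NR4A2*, 3.23 to 4.21 for *EGR3*, 0.98 to 1.19 for *HSPA8*, -1.19 to -0.94 for *CIRBP* and 3.42 to 5.64 for *CXCR6*. The median positions of 2.36% (genes high in CD8α-dim cells) and 1.64% (genes low in them) moved by less than their spread over pigs, to between 1.03% and 4.08% and between 0.818% and 6.13% with a pig left out. Depth limits genes of a few CPM, such as *EGR3* in blood.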

Other observations

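Some genes varied less between pigs in liver than in blood. *CLK1* had 456 ± 195 CPM in blood and 941 ± 37.9 CPM in liver CD8α-high cells (SD, n = 5), *SRSF7* 475 ± 62.6 and 640.4 ± 11.105 CPM, and the mitochondrial *ND3* 3454 ± 820.2 and 2362 ± 83.1 CPM. The genes were picked after their values were seen and the difference in spread was not tested.

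*KLRB1*, which encodes the NK receptor CD161, had 212, 329, 255, 386 and 191 CPM in the blood of pigs 1 to 5, 687, 334, 349.6, 387 and 239.8 CPM in liver CD8α-high and 1544, 1089, 193, 2316 and 1793 CPM in CD8α-dim cells. The difference between liver CD8α-high cells and blood was largest in pig 1, and the log2 fold change of the gene was 0.51 (SE 0.38, adjusted p = 0.989, edgeR).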
